A study of Rattus norvegicus with 6 samples.

Results

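Hmgcs1, Mvk, Pmvk, Mvd, Idi1, Fdps, Fdft1, Sqle and Lss encode the enzymes that carry acetyl-derived carbon through mevalonate to lanosterol, the first sterol ring. Of these 9 listed genes, 8 were matched by gene name to 1 row each of the 18077 rows of the count tables, and Fdps was not analysed here. RNA was sequenced in 6 libraries from cultures described as cardiomyocytes, the beating muscle cells of the heart, isolated from rat pups 1 to 3 days old. There were 3 libraries in each of 2 groups: Ad-GFP, an adenovirus carrying green fluorescent protein, entered as WT under treatment, and Ad-RNF128, an adenovirus entered as overexpression of RNF128, a membrane-bound RING ubiquitin ligase. Per the labels' protocols, both groups share 24 h with the saturated fatty acid palmitic acid at 500 µM, enzymatic isolation with pre-plating against fibroblasts, BrdU in the medium, and lysis after 48 h, and the protocol once writes RNF28 for the overexpressed gene. Separate animals, dishes or batches are not named, so p-values measure only the spread between these libraries, which may be technical.

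Mevalonate is made from acetyl-CoA by way of HMG-CoA. It is then phosphorylated, decarboxylated and isomerised to isoprene units. These are joined to farnesyl pyrophosphate, the branch point to dolichol, ubiquinone and protein prenylation, and on the sterol side to squalene, which is oxidised and closed to lanosterol. The enzyme genes are known as targets of SREBP-2, a transcription factor held in the endoplasmic reticulum by INSIG proteins when sterol is plentiful.

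The libraries held 16352844 to 21708973 counts. Counts on rat Rnf128 were 0 to 3 in every library and do not bear out the Ad-RNF128 label, while Rnf157, another RING ligase gene, was at 22.3 to 40.4 CPM (counts per 1000000 of the library total) in Ad-GFP and 1923 to 2553 CPM in Ad-RNF128. Directions below are therefore those of the libraries so labelled. Ad-GFP replicate 1 stood apart: its Spearman correlations with the others were at most 0.818, 14.6% of its counts were on ribosomal protein genes against at most 5.44% elsewhere, and 3551 genes had no read in it against at most 2288. It is therefore shown separately. Cardiomyocyte markers were low, since of 9 such genes with a row all but Tnnt2 stayed at or below 17.5 CPM in every library, and Nppa and Myl7 had 0 counts in 1 Ad-RNF128 library. The labelled cell type is thus poorly borne out by its own markers.

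The regulatory sequence just before the gene start is shown for 4 members: Hmgcs1 and Idi1, which were nearly absent from Ad-GFP replicate 1, and Mvk and Mvd, which were not. The 250 bases come from RefSeq promoters of build GRCr8, matched by symbol, at chr2:53382054-53382303 (+ strand), chr17:66547525-66547774 (- strand), chr12:47819504-47819753 (- strand) and chr19:67414975-67415224 (- strand). The counts were made on mRatBN7.2, and no coordinate was carried between the builds. Capitals mark CCAAT boxes (CCAAT, or ATTGG on the other strand), the site of factor NF-Y, and GC boxes (GGGCGG, or CCGCCC), the site of Sp1-type factors, both of which are known partners of SREBP. No marked site overlaps another.
Hmgcs1: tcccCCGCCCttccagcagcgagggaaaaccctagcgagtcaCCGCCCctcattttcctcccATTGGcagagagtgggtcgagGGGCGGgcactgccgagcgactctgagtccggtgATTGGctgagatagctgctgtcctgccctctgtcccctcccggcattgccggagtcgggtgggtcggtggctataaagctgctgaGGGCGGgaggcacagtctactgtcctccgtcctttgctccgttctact
Idi1: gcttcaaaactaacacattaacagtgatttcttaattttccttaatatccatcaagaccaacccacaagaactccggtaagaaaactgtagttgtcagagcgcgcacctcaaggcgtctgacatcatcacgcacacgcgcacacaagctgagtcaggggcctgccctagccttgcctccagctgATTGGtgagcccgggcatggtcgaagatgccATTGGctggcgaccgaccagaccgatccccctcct
Mvk: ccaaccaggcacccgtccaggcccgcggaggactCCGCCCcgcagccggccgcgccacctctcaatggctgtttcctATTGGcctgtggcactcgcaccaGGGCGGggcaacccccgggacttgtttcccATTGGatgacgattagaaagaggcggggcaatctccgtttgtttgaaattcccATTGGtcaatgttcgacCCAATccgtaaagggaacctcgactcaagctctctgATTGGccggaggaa
Mvd: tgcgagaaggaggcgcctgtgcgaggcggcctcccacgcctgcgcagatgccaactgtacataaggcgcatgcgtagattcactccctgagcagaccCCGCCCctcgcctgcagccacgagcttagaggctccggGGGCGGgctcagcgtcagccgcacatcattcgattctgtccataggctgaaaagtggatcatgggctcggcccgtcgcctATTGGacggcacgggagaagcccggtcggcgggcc

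Promoter entries matched 6 of the 9 listed genes, namely these 4, Fdps and Lss. A CCAAT box lay in 6 of the 6 windows, against 34.0% of all 33469 promoter windows and 35.4% of the 10528 windows whose symbol is that of a tested gene. Mvk held 5 matches, 4 of them as ATTGG, Hmgcs1 and Idi1 held 2 each, and Mvd 1. A GC box lay in 5 of the 6 windows, Idi1 lacking it, against 30.5% of all windows and 57.2% of those of tested genes. The sterol regulatory element core TCACNCCAC, searched on both strands, matched in 0 of the 6 windows and in 0.974% of all windows. A match is a description of letters, and a missing match says only that these letters are not in this window.

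With Ad-GFP replicate 1 left out, all 8 measured enzyme genes were lower in the libraries labelled Ad-RNF128. In mean CPM, 7 of them were 2.53-fold to 4.93-fold lower, and the eighth, Pmvk, was 1.10-fold lower. Their summed level was 1620 and 1491 CPM in Ad-GFP replicates 2 and 3 and 499, 473 and 492 CPM in Ad-RNF128 replicates 1, 2 and 3. Of the 8 genes, 8 passed the edgeR quasi-likelihood test with an adjusted p under 0.05 as lower and 0 as higher, where 28% of 13173 tested genes passed as lower and 28.9% as higher. The median log2 change of the 8 was -1.84, against 0.01 over all tested genes, and 0.926% of tested genes had a log2 change at or below that median. All 8 also had every Ad-RNF128 value below both control values, which held for 23.6% of tested genes. With scaling by library totals alone the split of all calls moved from 3812 higher and 3689 lower to 5367 higher and 2409 lower, the median of all genes to 0.17 and that of the 8 genes to -1.69, with 7 of the 8 still called.

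**Figure D1:**
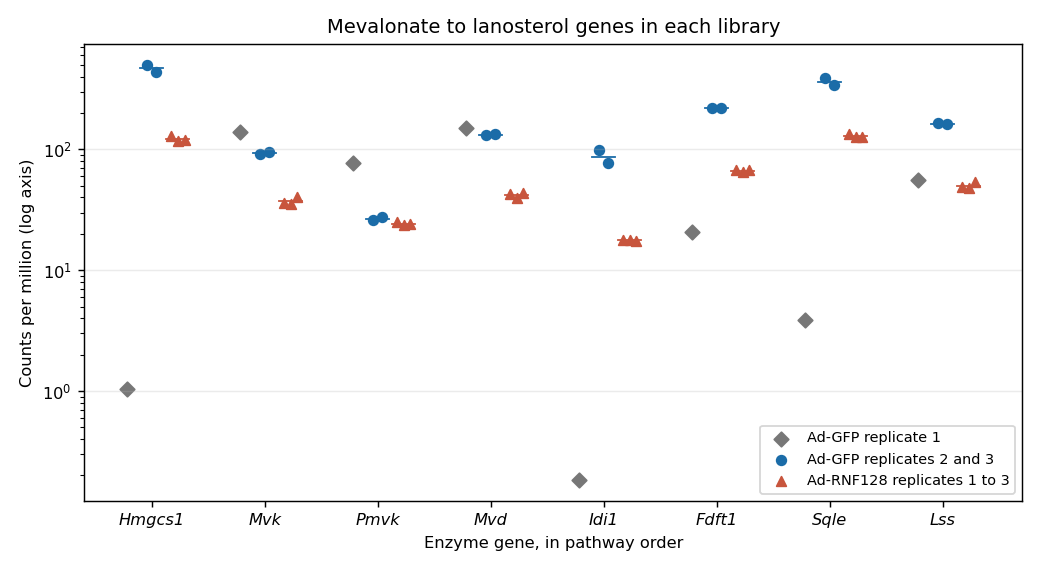
CPM (log axis) of the 8 measured enzyme genes in pathway order, 1 point per library, with bars at the means of Ad-GFP replicates 2 and 3 and of Ad-RNF128. The triangles of Ad-RNF128 lie below the circles of Ad-GFP replicates 2 and 3 for each gene, while the diamonds of Ad-GFP replicate 1 lie above the other libraries for Mvk, Pmvk and Mvd and far below them for Hmgcs1, Idi1 and Sqle.

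The pathway entry was low. Hmgcs1 (ENSRNOG00000016552), the cytosolic HMG-CoA synthase, was at 501 and 438 CPM in Ad-GFP replicates 2 and 3, at 129, 118 and 120.1 CPM in Ad-RNF128 replicates 1, 2 and 3, and at 1.04 CPM in Ad-GFP replicate 1. The groups did not overlap once replicate 1 was left out, and both controls were over 3 times each Ad-RNF128 value. Its log2 change was -2.09 ± 0.07 (SE, edgeR adjusted p = 3.53e-12). Hmgcs1 held 30.9% and 29.4% of the summed CPM of the 8 genes in the controls and 24.4% to 25.9% in Ad-RNF128.

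The kinases and the decarboxylase that turn mevalonate into isopentenyl pyrophosphate did not move alike. Mvk (ENSRNOG00000049604), mevalonate kinase, was at 91.5 and 95.7 CPM in Ad-GFP replicates 2 and 3, at 35.8, 35.2 and 40.04 CPM in Ad-RNF128, and at 139 CPM in Ad-GFP replicate 1. Its level in Ad-RNF128 was below that in all 3 controls, with a log2 change of -1.49 ± 0.08 (edgeR adjusted p = 4.81e-10) without replicate 1. Pmvk (ENSRNOG00000020696), phosphomevalonate kinase, was at 26.1 and 27.3 CPM in Ad-GFP replicates 2 and 3, at 25.03, 23.5 and 24.2 CPM in Ad-RNF128, and at 77.1 CPM in Ad-GFP replicate 1. The values of the 2 groups lay side by side without overlapping. The log2 change of Pmvk was -0.30 ± 0.08 (edgeR adjusted p = 0.00633), but -0.14 with library totals alone (adjusted p = 0.144) and -0.24 without Ad-GFP replicate 3 (adjusted p = 0.0624), so its call depends on the scaling and on that library. Mvd (ENSRNOG00000013376), the decarboxylase, was at 132 and 133 CPM in Ad-GFP replicates 2 and 3, at 42.3, 39.3 and 43.2 CPM in Ad-RNF128, and at 151 CPM in Ad-GFP replicate 1. All 3 controls were thus above 3 times the Ad-RNF128 mean of 41.6 CPM, and the log2 change without replicate 1 was -1.83 ± 0.07 (edgeR adjusted p = 1.56e-11).

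Idi1 (ENSRNOG00000016690), the isomerase that interconverts the isoprene units, had the largest fall of the 8 without Ad-GFP replicate 1, though not over all 6 libraries. It was at 97.8 and 76.6 CPM in Ad-GFP replicates 2 and 3, at 17.7, 17.9 and 17.4 CPM in Ad-RNF128, and at 0.183 CPM in Ad-GFP replicate 1, where it had 3 counts. The control pair was more spread (87.2 ± 15.01 CPM, SD, n = 2) than the Ad-RNF128 values (17.7 ± 0.262 CPM, SD, n = 3), and the groups did not overlap. The log2 change was -2.45 ± 0.09 (edgeR adjusted p = 1.09e-11).

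The squalene steps fell together. Fdft1 (ENSRNOG00000021314), squalene synthase, which draws farnesyl pyrophosphate into the sterol branch, was at 221 and 219 CPM in Ad-GFP replicates 2 and 3, at 67.3, 65.4 and 67.5 CPM in Ad-RNF128, and at 20.7 CPM in Ad-GFP replicate 1. Sqle (ENSRNOG00000009550), squalene epoxidase, a rate-limiting enzyme of the pathway, was at 387 and 339 CPM in Ad-GFP replicates 2 and 3, at 133, 126 and 127 CPM in Ad-RNF128, and at 3.85 CPM in Ad-GFP replicate 1. Lss (ENSRNOG00000054549), the cyclase that forms lanosterol, was at 164 and 162 CPM in Ad-GFP replicates 2 and 3, at 48.8, 47.9 and 53.2 CPM in Ad-RNF128, and at 55.8 CPM in Ad-GFP replicate 1. For all 3 genes the Ad-RNF128 values lay well under Ad-GFP replicates 2 and 3, but for Fdft1 and Sqle they lay above replicate 1. The log2 changes were -1.87 ± 0.06 for Fdft1 (edgeR adjusted p = 4.45e-12), -1.65 ± 0.07 for Sqle (edgeR adjusted p = 2.69e-11) and -1.86 ± 0.07 for Lss (edgeR adjusted p = 1.3e-11).

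Among themselves, the 95% intervals of the log2 change ran from -2.64 to -2.26 for Idi1 and from -2.24 to -1.95 for Hmgcs1 at the lower end, through Fdft1, Lss, Mvd, Sqle and Mvk, to -0.47 to -0.12 for Pmvk. The intervals of Fdft1 (-2.01 to -1.74), Lss (-2.01 to -1.71) and Mvd (-1.97 to -1.68) overlap almost wholly. Relative to the mean log2 CPM of the other 7 genes in the same library, Pmvk was at -2.85 and -2.69 in Ad-GFP replicates 2 and 3 and at -1.14, -1.17 and -1.20 in Ad-RNF128, a difference of 1.60. Idi1 moved the other way by the same measure, from -0.67 and -0.98 to -1.71, -1.62 and -1.74. Sqle was the 1 gene whose groups overlapped on it, at 1.60 and 1.47 against 1.62, 1.60 and 1.53. These differences between genes were not tested.

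**Figure D2:**
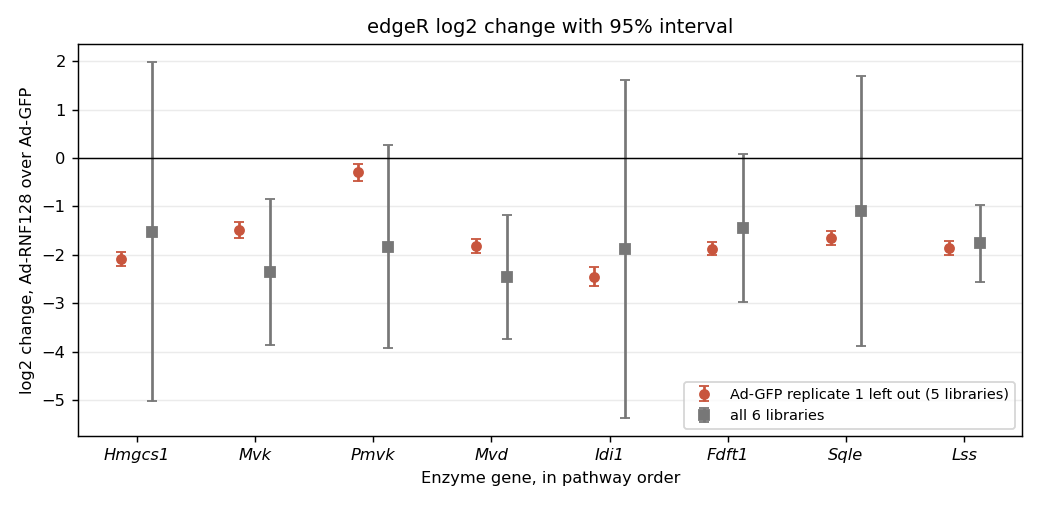
edgeR log2 change of each enzyme gene, Ad-RNF128 over Ad-GFP, with its 95% interval, for the 5 libraries without Ad-GFP replicate 1 (circles) and for all 6 (squares). The circles lie between -2.45 (Idi1) and -0.30 (Pmvk) with narrow intervals, while the squares are all below 0 with intervals that cross 0 for Hmgcs1, Pmvk, Idi1, Fdft1 and Sqle.

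Over all 6 libraries no enzyme gene passed the test. This fit also called none of the changes planted in simulated counts, at sizes like those of most genes above. The fit without Ad-GFP replicate 1 called them, with 12 false calls among 212. The simulation gave every library the same spread for a gene, taken from the libraries of that fit, and made none stand apart. It thus cannot show how the fit treats a library like Ad-GFP replicate 1. For all 6 libraries that spread already includes Ad-GFP replicate 1, so no conclusion is drawn from the missing simulated calls. The missing calls by themselves do not show equal levels. The log2 changes were all negative, from -2.46 ± 0.52 for Mvd to -1.10 ± 1.14 for Sqle, with a median of -1.80 against -0.02 over all genes, and edgeR adjusted p values from 0.179 (Lss) to 0.823 (Sqle). Of the 12863 genes tested, 0% passed as higher and 0% as lower, and 432 higher and 310 lower genes had an unadjusted p under 0.05. Among these were 3 of the 8 enzyme genes, Mvk, Mvd and Lss, which DESeq2 called at adjusted p values of 0.0054, 0.000844 and 1.6e-06. DESeq2 gave Pmvk a log2 change of -2.29 but no adjusted p. DESeq2 called 244 genes higher and 142 lower in all, and limma-voom 14 higher and 0 lower, with none of the 8. In limma-voom the log2 change of Idi1 turned to 0.018 (adjusted p = 0.996). Those of Hmgcs1 and Sqle shrank to -0.013 (adjusted p = 0.996) and -0.18 (adjusted p = 0.946). Mvk, Pmvk, Mvd, Fdft1 and Lss stayed between -2.24 and -1.06. The all-library changes rest on a TMM scaling factor of 0.47 for Ad-GFP replicate 1, against 1.08 to 1.22 for the others. In unscaled CPM, Mvk, Pmvk, Mvd and Lss had every Ad-RNF128 value below all 3 controls. For Hmgcs1, Idi1, Fdft1 and Sqle, Ad-GFP replicate 1 lay below every Ad-RNF128 value. The share of all tested genes with every Ad-RNF128 value below all 3 controls was not computed, so no weight is put on these counts.

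In Ad-GFP replicate 1 the 8 genes departed in both directions, as did tested genes in general. In CPM this library held 3 of the 8 genes above every other library, 4 below every other library and Lss in between. Of all tested genes 24.1% were above and 66% below, so the counts for the 8 genes are not far from the general shares. Against the pooled replicates 2 and 3 the ratio was 2.88 for Pmvk (exact counting interval at 95%, 2.65 to 3.13), 1.48 for Mvk (1.40 to 1.56) and 1.14 for Mvd (1.09 to 1.20). Lss was 2.92-fold lower (2.72 to 3.13), Fdft1 10.6-fold (9.54 to 11.9) and Sqle 93.8-fold (73.2 to 122). Hmgcs1 was 449-fold lower (280.5 to 771) on 17 counts, and Idi1 471-fold (161 to 2283) on 3 counts. The 3 genes that were high encode the consecutive steps from mevalonate to isopentenyl pyrophosphate, but whether this goes beyond the library's general departure was not tested. These intervals cover counting error in single libraries only and say nothing of the spread between cultures. In summed CPM of the 8 genes this library, at 448, lay close to the Ad-RNF128 libraries, but Mvk, Pmvk and Mvd made up 81.8% of it there and 15.4% to 21.8% in the other 5.

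**Figure D3:**
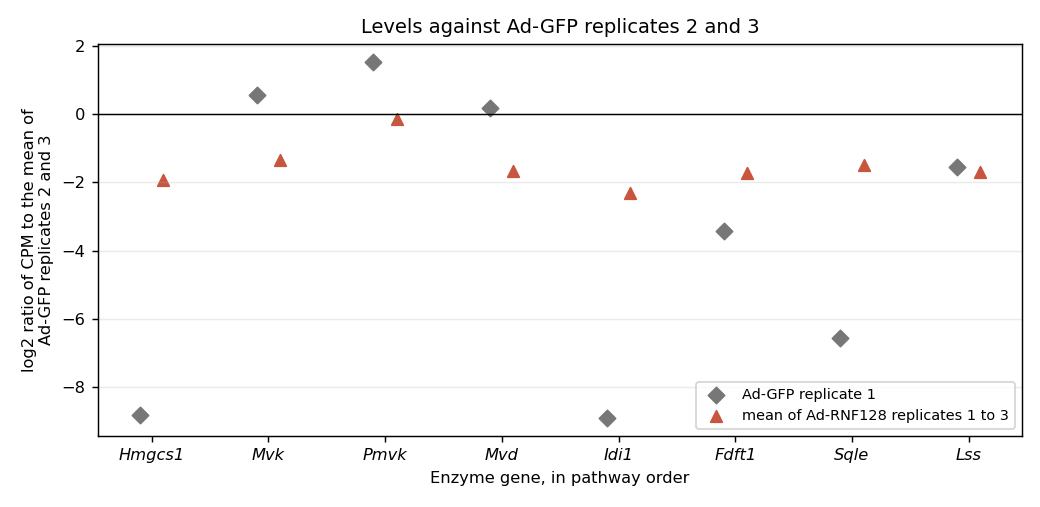
log2 ratio of CPM to the mean of Ad-GFP replicates 2 and 3 for each enzyme gene, for Ad-GFP replicate 1 (diamonds) and for the mean of the 3 Ad-RNF128 libraries (triangles). The triangles stay between -2.30 and -0.14, while the diamonds range from -8.89 for Idi1 to 1.53 for Pmvk.

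The neighbour of Mvk was at a different level from it in that library. Mvk and Mmab, the gene of a cobalamin adenosyltransferase, lie head to head in the RefSeq annotation (GRCr8) with 254 bases between their starts, so that the Mvk window printed above is almost the whole interval. Mmab was named after its values were seen. It was at 27.3 and 22.4 CPM in Ad-GFP replicates 2 and 3 and at 7.89, 9.03 and 9.14 CPM in Ad-RNF128, and fell by 1.66 ± 0.11 on the log2 scale (edgeR adjusted p = 1.07e-08). In Ad-GFP replicate 1 it was at 6.97 CPM, below every other library, where Mvk was above every other.

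Of 8 listed genes at the entry to the pathway and beside it, 6 were tested, 5 passed as lower and 1 as higher. Acat2, the cytosolic thiolase, was at 346 and 323 CPM in Ad-GFP replicates 2 and 3, at 79.3, 71.8 and 69.2 CPM in Ad-RNF128 and at 9.23 CPM in Ad-GFP replicate 1. Without that library the groups did not overlap and Acat2 fell by 2.34 ± 0.07 on the log2 scale (edgeR adjusted p = 1.34e-12).

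With Ad-GFP replicate 1 left out, the steps after lanosterol went the same way, with 9 of 9 tested genes lower. Their median log2 change was -1.85, close to the -1.84 of the 8 enzyme genes. Dhcr7, the last reductase, was at 108 and 109 CPM in Ad-GFP replicates 2 and 3 and at 21.7, 18.7 and 23.5 CPM in Ad-RNF128 (log2 change -2.51 ± 0.09), and Cyp51, the demethylase that acts on lanosterol, had -1.95 ± 0.06. Ad-GFP replicate 1 held Dhcr7 at 9.66 CPM and Cyp51 at 6.60 CPM, below every Ad-RNF128 value. Tm7sf2 and Ebp of the same list, at 11.2 and 24.5 CPM in that library, lay above every Ad-RNF128 value. In the branches that leave farnesyl pyrophosphate for prenylation, dolichol and ubiquinone, 1 of 14 tested genes passed as lower, 1 as higher and 12 did not pass, with a median of 0.09. Rabggtb, a subunit of the prenyltransferase of Rab proteins, rose (0.65 ± 0.10, edgeR adjusted p = 7.98e-05), and Zmpste24, a protease that trims prenylated proteins, fell (-0.42 ± 0.07, adjusted p = 0.000157). These 2 genes were at 13.1 and 1.10 CPM in Ad-GFP replicate 1. Ggps1, which makes geranylgeranyl pyrophosphate, was at 11.4 and 12.9 CPM in Ad-GFP replicates 2 and 3 and at 11, 13.9 and 10.4 CPM in Ad-RNF128, with overlapping groups (log2 change -0.20, adjusted p = 0.235). Its level in Ad-GFP replicate 1 was 0.0612 CPM. It is named outside the rule, for its place at the branch point. Counts of the branch genes and of the sterol enzymes were not tested against each other.

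**Figure D4:**
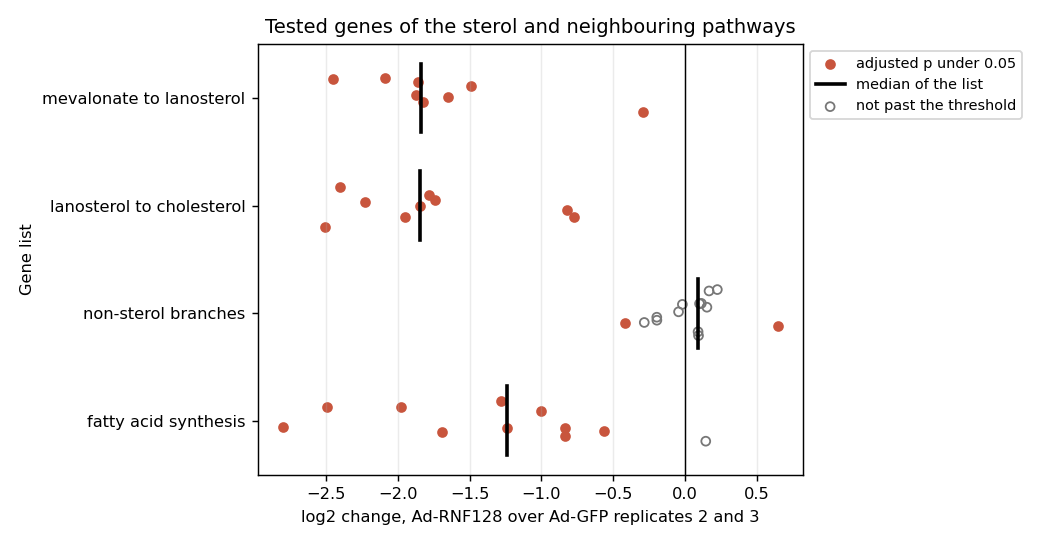
edgeR log2 change without Ad-GFP replicate 1 for each tested gene of 4 lists, with filled points at an adjusted p under 0.05 and a bar at the list median. The medians of the mevalonate to lanosterol and the lanosterol to cholesterol lists lie at -1.84 and -1.85 and that of the non-sterol branches at 0.09, where most points are open.

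Among 15 genes of SREBP control and lipoprotein uptake tested without Ad-GFP replicate 1, 7 passed as lower, 5 as higher and 3 did not pass. Srebf2, which encodes SREBP-2, was at 278 and 289.7 CPM in Ad-GFP replicates 2 and 3 and at 139.6, 139 and 148 CPM in the Ad-RNF128 libraries. Srebf2 fell by 1.15 ± 0.07 on the log2 scale (edgeR adjusted p = 1.63e-09). Insig1, which encodes one of the INSIG proteins, had a log2 change of -2.18 (adjusted p = 3.9e-12). Ad-GFP replicate 1 held Srebf2 at 49.8 CPM and Insig1 at 2.20 CPM, below every Ad-RNF128 value. Insig2, the other INSIG gene, named after its values were seen, went the other way, from 14.8 and 11.2 CPM in Ad-GFP replicates 2 and 3 to 21.1, 19.8 and 18.96 CPM in Ad-RNF128, a rise of 0.47 ± 0.11 on the log2 scale (edgeR adjusted p = 0.00242). It was at 1.04 CPM in Ad-GFP replicate 1. Of 8 tested genes of oxysterol signalling and efflux, 2 passed as lower and 4 as higher. Those 2 were Abca1, a cholesterol exporter, at -1.21 and Mylip, a ubiquitin ligase, at -0.91. Both lay below every Ad-RNF128 value in Ad-GFP replicate 1, at 3.12 and 2.26 CPM. Of 11 fatty acid synthesis genes, 10 passed as lower and 0 as higher, with a median of -1.24. The desaturase genes Scd2 and Scd led them at -2.80 and -2.50. Scd2 and Scd were at 24.8 and 0.489 CPM in Ad-GFP replicate 1, again below every Ad-RNF128 value. Over all 6 libraries 0 genes of any of these lists passed with edgeR, and unadjusted p was under 0.05 for 1 of 6 entry genes, 4 of 9 genes after lanosterol, 2 of 11 fatty acid synthesis genes and 0 of the other lists.

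Of the 5 genes with the profile closest to the median of the 8 over the 6 libraries, out of 9585 with a mean of at least 5 CPM, 4 were Fads2, Atoh8, Mt-cyb and Slc24a3. The root mean square difference in log2(CPM + 1), each profile being set to 0 at the mean of Ad-GFP replicates 2 and 3, was 0.10, 0.14, 0.20 and 0.25. Fads2 was at 48.1 CPM in Ad-GFP replicate 1, 252 and 251 CPM in replicates 2 and 3, and 89.2, 80.98 and 89.65 CPM in Ad-RNF128. Fads2 encodes a fatty acid desaturase and Mt-cyb a mitochondrial respiratory subunit. The 8 genes themselves lay at 0.372 (Lss) to 2.22 (Hmgcs1) from their own median. All profiles come from the same 6 libraries.

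Several other features moved with the group in the 5 libraries. Mitochondrial genome genes took 4.91% and 5.35% of the counts in Ad-GFP replicates 2 and 3 and 3.08% to 3.32% in Ad-RNF128. The share of counts on ribosomal protein genes was 3.51% and 3.82% against 5.09% to 5.44%, and 2288 and 2200 genes had no read against 1190 to 1487, so the groups did not overlap on these measures either. Of 8 fibroblast markers 7 were tested and 5 fell, with a summed level of 38192 and 39798 CPM against 10251 to 11145 CPM, nearly all of it collagen. Tcf21 had at most 1 count in any library of either group, and Dcn stayed at or below 1.22 CPM. Of 7 tested skeletal muscle markers 5 fell and 1 rose, with sums of 101 and 104 CPM against 47.4 to 49.6 CPM. Of 8 tested cardiomyocyte markers 1 fell, Tnnt2, from 342 and 350 CPM to between 34.02 and 57.4 CPM. Tnnt2 made up most of the control sums, which were 392 and 391 CPM against 35.1 to 113 CPM in Ad-RNF128. The lowest of these was Ad-RNF128 replicate 3, where Myh6 was at 0.104 CPM against 10.8 to 16 CPM elsewhere, and its enzyme levels lay beside those of the other 2 Ad-RNF128 libraries. Of 3 tested macrophage markers 2 rose, Csf1r and Cd68, both below 2.7 CPM in every library. The macrophage sums (16.9 and 16.5 against 22.2 to 22.4 CPM) were mostly Cd14, which did not pass (edgeR adjusted p = 0.427). Ptprc and Adgre1 were at or near 0. Of 2 tested endothelial markers 2 rose. Their list sums (21.1 and 22.5 against 33.1 to 33.9 CPM) were nearly all Egfl7, with Pecam1 and Kdr below 0.3 CPM. Of 6 smooth muscle markers 2 fell and 3 rose, with sums that overlapped (5435 and 6035 against 5209 to 5796 CPM). The part of these differences in the lower enzyme levels was not tested, and in bulk RNA fewer cells of a type and less RNA per cell cannot be told apart.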

How the data were processed

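RNA-seq of 6 libraries was analysed. Per the submitters' processing notes HISAT2, HTSeq 0.13.5 and rat build mRatBN7.2 were used; the sources used here do not give the strand setting. What the authors deposited is 1 table per library of read counts for each gene, not normalized. For Ad-GFP replicate 1 the deposited table has 1 value that is not whole, so its values were treated as estimated counts and rounded here. The same rounding was applied to the tables of all 6 libraries. Where a name repeated, the row of largest mean was kept. The 8 genes had 1 row each, within stretches ordered by name.

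CPM is a count times 1000000 over the library total. Tests used edgeR 4.0.16 in R 4.3.3 (filterByExpr, TMM, quasi-likelihood F-test, Benjamini-Hochberg adjustment over all genes tested, threshold 0.05), and all 8 genes passed the low-count filter in both fits. Changes are given as Ad-RNF128 relative to Ad-GFP, and SE was derived from the change and its F statistic. With 2 controls left, the spread is pooled over both groups. The 95% intervals of the log2 change were built from that SE with the t distribution and include the spread between libraries. The intervals of the Ad-GFP replicate 1 ratios are exact at 95% confidence and cover counting error only. Both fits were tested on simulated data, where planted changes were called without Ad-GFP replicate 1 but not over all 6 libraries. No simulated library was made to stand apart as Ad-GFP replicate 1 does.

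The members, lists, motifs and alternatives were chosen with earlier results of these data known. Besides the members, the naming rule takes Srebf2, Insig1, other genes fixed by name and the 2 genes of smallest p of each other pathway list, and the 5 genes of most similar profile. Lbr and Fntb were not analysed here, and some genes the rule takes are not reported here. Alternatives were other scalings, DESeq2 1.42.0, limma-voom (limma 3.58.1), other low-count filters, a stricter threshold, a replicate block and leaving out each library. Gene lengths were not used, so shares of summed CPM and levels relative to the other genes also depend on gene length. They are given for comparison between libraries only.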

Additional observations from a re-analysis of the deposited data

How the results depend on the processing

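Without Ad-GFP replicate 1, 102 of 104 alternative values of the single enzyme genes kept direction and call, and both exceptions were Pmvk, as given above. Library totals alone gave 2409 genes lower and a median of -1.69 for the enzyme genes. The 8 genes were all called lower under the other alternatives except without Ad-GFP replicate 3, where 7 were. The titles' replicate numbers mark no stated pairing, and deviations of same-numbered libraries correlated at 0.0605 and 0.118. With a replicate block 8 of the 8 genes were called lower, among 3931 genes higher and 3864 lower.

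Over all 6 libraries edgeR called no gene. Library totals alone called 8 genes higher and moved the median of all genes from -0.02 to 0.35 and that of the enzyme genes from -1.80 to -1.35, while limma-voom called 14 higher and DESeq2 244 higher and 142 lower with 3 of the enzyme genes. For Pmvk DESeq2 gave no adjusted p. Same-numbered libraries correlated at -0.178, 0.0131 and -0.136, and the replicate block gave a median of -1.17 with 0 calls. Leaving out 1 library gave 0 to 3812 genes higher, 0 to 3689 lower and 0 to 8 enzyme genes lower, the upper ends without Ad-GFP replicate 1 and the lower ends without any other. The one sign change, in limma-voom, was Idi1 at 0.018, and there Hmgcs1 and Sqle also shrank, to -0.013 and -0.18. The cause was not tested. Scaling CPM by TMM lowered the values of the other 5 libraries and raised those of Ad-GFP replicate 1. Ad-GFP replicate 1 holds only 3 counts of Idi1 and 17 of Hmgcs1, which limits their ratios.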
